A study of Homo sapiens with 3 samples.

Results

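Rab GTPases are the small G proteins that label the membranes of a cell. Each Rab sits on its own set of vesicles or organelles in a GTP-bound state, recruits effectors such as tethers and motors, and is switched on by exchange factors and off by GTPase-activating proteins. In macrophages they organise phagosome maturation, lysosome delivery and secretion, and in granulocyte precursors they serve the release of granules. The members were all probe sets whose platform gene symbol was RAB followed by a number and an optional letter. This gave 138 probe sets for 57 genes, of 41091 probe sets for 19775 genes that the platform table lists with 1 gene. Another 11 probe sets list a Rab symbol together with other genes and were not assigned to a gene. RAB34, RAB6C and RAB6D occur only there.

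Expression was measured on 3 arrays, 1 per culture, of THP-1, an established human monocytic leukemia cell line. The drug was phorbol myristate acetate (PMA), an activator of protein kinase C that turns THP-1 cells into adherent, macrophage-like cells. The cultures were undifferentiated cells, cells labelled PMA 3 days (200 nM PMA for 24 h, then 3 days without PMA) and cells labelled PMA 8 days (200 nM PMA for 72 h, then 5 days without PMA). The PMA cultures differ both in how long the drug was present and in how long it had been gone, which cannot be told apart. The treatment protocol, given alike for all 3 samples, ends with 16 h in medium with 2% serum before RNA was taken. With 1 array per condition there is no error between cultures and no test of a difference. A gene was called higher or lower when its brightest probe set differed by at least 2-fold.

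Each array had a trimmed mean signal of 1000.1, and its share of probe sets above the floor was between 48.5% and 51.4%. The floor, to which lower signals were raised, was 149.8 signal units. The log2 ratios of probe sets for the same gene had a pooled SD of 0.44 at PMA 3 days and 0.45 at PMA 8 days when set over undifferentiated cells, and of 0.27 between the PMA cultures. These SDs hold no culture or labelling error. Of the macrophage markers under PMA, 7 of 8 were above the floor in undifferentiated cells, 8 at PMA 3 days and 8 at PMA 8 days. Markers of other lineages were mixed. In the same order 2, 3 and 2 of 5 lymphoid markers were above the floor, and 2, 2 and 3 of 3 erythroid and platelet markers. Of 5 fibroblast and endothelial markers 3, 2 and 2 were above it, among them COL1A1 (464, 2337 and 1828 units) and PECAM1 (21258, 20720 and 18665). Of 4 epithelial markers EPCAM, KRT19 and CDH1 were below the floor on every array. KRT18 was above it on every array, with 338 signal units in undifferentiated cells, 330.4 at PMA 3 days and 296 at PMA 8 days. FCGR1A, an Fc receptor of monocytes, was also below it on every array. SPI1, the myeloid transcription factor PU.1, had 25.0 signal units in undifferentiated cells, below the floor. It had 162 at PMA 3 days and 175 at PMA 8 days, just above the floor. Among the other myeloid markers CEBPA (13606, 2090 and 3760 units in the same order) and LYZ (62439, 36591 and 23242.5) were lower after PMA. ITGAM (5544, 13677 and 16049.5) and CSF1R (1469, 8210 and 6801) were higher.

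Of the 57 Rab genes, 53 were above the floor on at least 1 array and 45 on all 3. RAB25, RAB39B, RAB40A and the only unshared probe set of RAB6A were below it throughout. Among 53 Rab genes measured at PMA 3 days, 5 passed 2-fold upwards over undifferentiated cells and 4 downwards. The share called was 17.0%, against 21.1% of the 13306 genes measured, 10.4% of which were higher and 10.7% lower. At PMA 8 days 7 were higher and 4 lower among 53, which is 20.8%, against 18.3% of 13555 genes, 9.83% of which were higher and 8.49% lower. The family was thus called about as often as genes in general. Its median log2 ratio was 0.21 at PMA 3 days and 0.25 at PMA 8 days, against -0.12 and -0.07 for all genes. With spiked poly-A transcripts as the basis for scaling, the counts at PMA 3 days became 4 higher and 6 lower, with a median of -0.10 against -0.40 for all genes. At a 1.5-fold threshold 15 Rab genes were higher and 9 lower at PMA 3 days, against 17.9% and 23.8% of all genes, and 11 were higher and 7 lower at PMA 8 days, against 17.6% and 20.1%. Of the measured members, 7 at PMA 3 days and 8 at PMA 8 days had their lower array at the floor, so that these counts and medians include bounds.

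Altogether 12 Rab genes passed 2-fold in at least 1 PMA culture over undifferentiated cells, and 8 of them passed in the same direction at both times. The ratios at both times share the same undifferentiated array, so they are not independent. RAB7B, RAB27B, RAB31 and RAB42 were higher at both times. RAB27A, RAB3D, RAB37 and RAB40C were lower at both times. RAB39A, RAB15 and RAB22A passed only the PMA 8 days threshold, with PMA 3 days folds of 1.96, 1.94 and 1.73, so the calls separate values that lie close together. RAB30 passed at PMA 3 days by 1 of its probe sets. In bulk RNA, less transcript per cell and fewer cells that carry it cannot be told apart, which holds for every value below.

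**Figure D1:**
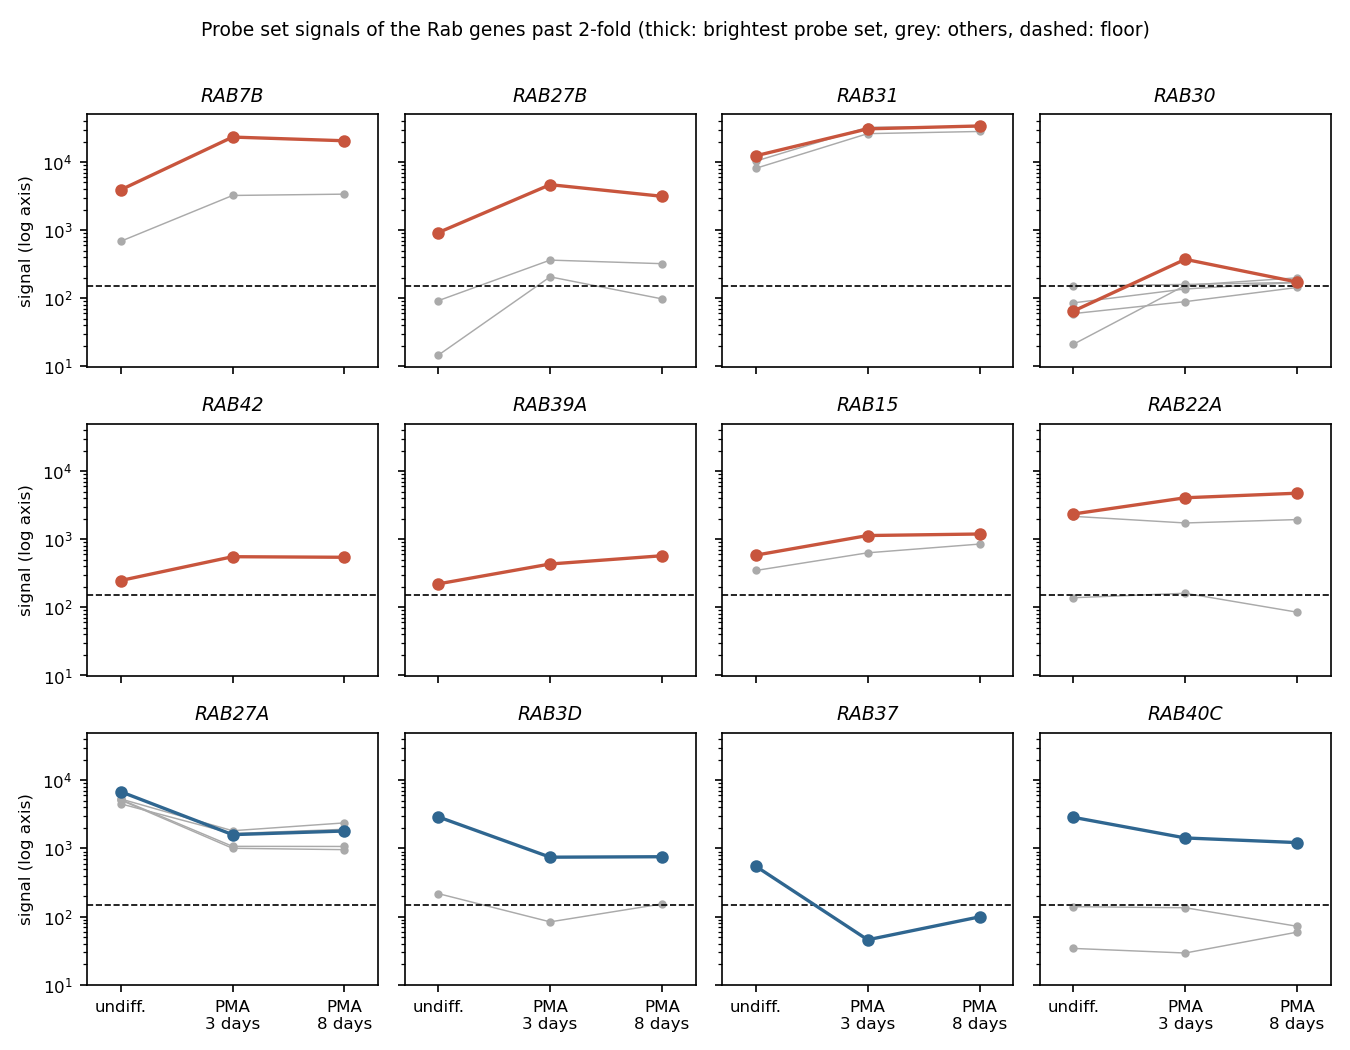
Signal on a log axis of every probe set of the 12 Rab genes past 2-fold on the undifferentiated, PMA 3 days and PMA 8 days arrays, 1 array each. Coloured lines are the brightest probe set (red where the gene was higher, blue where lower), grey lines the others, and the dashed line is the floor of 149.8. RAB7B and RAB27B run up and RAB27A, RAB3D and RAB37 run down at PMA 3 days and stay near that level at PMA 8 days, while RAB30 has 1 probe set above its others at PMA 3 days only.

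The late endosome and lysosome group held the member with the largest ratio. RAB7B, a Rab of late endosomes and the trans-Golgi network that promotes the breakdown of toll-like receptors in macrophages, had 3899.8 signal units in undifferentiated cells, 23234 at PMA 3 days and 20505.5 at PMA 8 days. It was 5.96-fold higher at PMA 3 days and 5.26-fold higher at PMA 8 days, and its ratio stood at rank 302 of 13306 genes and 314 of 13555. Its other probe set gave 4.71-fold and 4.93-fold. RAB7A, the Rab that drives fusion of late endosomes with lysosomes, did not follow its namesake: it had 6582 signal units in undifferentiated cells, 5968 at PMA 3 days and 6002 at PMA 8 days. The log2 ratios of its 5 measured probe sets ran between -0.62 and 0.24 at PMA 3 days and between -0.53 and 0.43 at PMA 8 days. RAB7A and RAB7B thus differed by 2.72 in log2 ratio at PMA 3 days and by 2.53 at PMA 8 days.

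RAB39A, which acts on phagosomes in macrophages, had 221 signal units in undifferentiated cells, 433 at PMA 3 days and 573 at PMA 8 days (2.59-fold higher at PMA 8 days). RAB42 had 248, 555 and 544 in the same order and was 2.24-fold higher at PMA 3 days and 2.19-fold higher at PMA 8 days. Both rest on a single probe set with a dim undifferentiated signal. RAB12, which directs recycling receptors to lysosomes, was 1.77-fold and 1.54-fold above undifferentiated cells at PMA 3 and 8 days, and RAB9A, which returns receptors to the Golgi, 1.66-fold and 1.17-fold. RAB20, a Rab of maturing phagosomes, had 1062 signal units in undifferentiated cells, 972 at PMA 3 days and 1299 at PMA 8 days. RAB24, linked to autophagy, went the other way by 1.63-fold and 1.92-fold, with 3394 units in undifferentiated cells, 2077 at PMA 3 days and 1765 at PMA 8 days. In this group 2 of 9 measured members were higher at PMA 3 days, against 10.4% of all genes, and 3 at PMA 8 days, against 9.83%, and none was lower. The log2 ratios of the group ran from -0.71 to 2.57 at PMA 3 days, with a median of 0.73, and from -0.94 to 2.39 at PMA 8 days, with a median of 0.29. The PMA 3 days median was 0.38 by the median of each gene's probe sets, 0.23 without probe sets prone to cross-hybridisation (x_at and s_at) and 0.42 with poly-A scaling.

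The RAB27 pair moved in opposite directions. RAB27A, which docks lysosome-related organelles and granules at the plasma membrane, had 6814 signal units in undifferentiated cells, 1594 at PMA 3 days and 1802 at PMA 8 days. It was 4.27-fold lower at PMA 3 days and 3.78-fold lower at PMA 8 days. All 5 of its probe sets were at least 2-fold lower at either time, with log2 ratios between -2.35 and -1.45 at PMA 3 days and between -2.42 and -1.17 at PMA 8 days. RAB27B, its close paralog with roles in platelet granules and exosome release, had 918 units in undifferentiated cells, 4647 at PMA 3 days and 3136.5 at PMA 8 days. It was 5.06-fold higher at PMA 3 days and 3.42-fold higher at PMA 8 days. Its second probe set had 91.9 units in undifferentiated cells and was at least 2.42-fold and 2.14-fold higher, and the dimmest was near or below the floor. The gap between the paralogs was 4.43 in log2 ratio at PMA 3 days and 3.69 at PMA 8 days. Of 12 numbered families with at least 2 measured members this was the only 1 called in both directions, at either time.

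Promoter windows are printed for these contrasting pairs, RAB7B beside RAB7A and RAB27B beside RAB27A, because the higher member of each has few CG dinucleotides. Each window covers 250 bases before to 50 after the RefSeq gene start in GRCh38.p14, 5′ to 3′ on the gene's strand, with every CG in capitals. RAB7B lies at chr1:206003346-206003645 on the minus strand and has 4 CG, and RAB7A at chr3:128725933-128726232 on the plus strand has 25. RAB27B lies at chr18:54717607-54717906 on the plus strand and has 6 CG, and RAB27A at chr15:55319074-55319373 on the minus strand has 23.
RAB7B: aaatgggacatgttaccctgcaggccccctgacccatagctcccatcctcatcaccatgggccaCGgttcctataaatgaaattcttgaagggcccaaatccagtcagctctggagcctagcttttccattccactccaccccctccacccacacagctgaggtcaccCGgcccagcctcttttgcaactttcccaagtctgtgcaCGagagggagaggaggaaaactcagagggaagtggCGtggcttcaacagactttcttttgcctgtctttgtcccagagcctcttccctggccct
RAB7A: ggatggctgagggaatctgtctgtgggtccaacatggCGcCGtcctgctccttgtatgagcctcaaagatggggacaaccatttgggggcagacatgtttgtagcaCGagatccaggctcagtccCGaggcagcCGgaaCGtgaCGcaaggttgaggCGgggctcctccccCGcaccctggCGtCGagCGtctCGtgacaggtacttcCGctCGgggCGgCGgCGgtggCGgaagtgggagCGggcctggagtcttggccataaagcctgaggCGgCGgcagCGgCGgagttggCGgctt
RAB27B: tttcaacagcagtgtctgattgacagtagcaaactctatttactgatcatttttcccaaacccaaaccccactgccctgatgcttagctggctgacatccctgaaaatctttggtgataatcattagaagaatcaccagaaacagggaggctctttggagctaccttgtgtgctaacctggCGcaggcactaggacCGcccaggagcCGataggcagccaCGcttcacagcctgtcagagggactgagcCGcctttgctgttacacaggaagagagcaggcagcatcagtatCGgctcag
RAB27A: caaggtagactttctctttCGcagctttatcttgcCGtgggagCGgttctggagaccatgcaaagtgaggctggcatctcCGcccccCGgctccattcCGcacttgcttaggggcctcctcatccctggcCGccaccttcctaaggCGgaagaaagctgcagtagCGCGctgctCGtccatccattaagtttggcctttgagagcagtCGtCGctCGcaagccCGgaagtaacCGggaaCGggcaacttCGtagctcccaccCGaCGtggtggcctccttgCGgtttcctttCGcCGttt

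The RefSeq table held a promoter window for 45 of the 57 Rab genes. The median number of CG was 29 among them, against 14 over all 27305 windows. Of 5 measured Rab genes with fewer CG than that median, 3 were higher at PMA 3 days (RAB7B, RAB27B and RAB42) and none was lower. Of 37 with at least as many, 2 were higher and 3 lower. Among all genes 28.6% of 2222 with fewer CG and 18.7% of 8532 with at least as many were called at PMA 3 days, so the direction of this difference is shared by genes in general, and its size for Rab genes rests on 5 genes. The sequence TGANTCA, which AP-1 binds and which reads the same on both strands, was in 2 of 45 Rab windows (4.44%) and in 7.76% of all windows, and in none of the 10 windows of called Rab genes. CACGTG, the E-box core bound by lysosomal transcription factors, was in 6 Rab windows (13.3%), among called genes only in that of RAB31, and in 7.43% of all. GAGGAA on either strand, a core that PU.1 binds, was in 14 Rab windows (31.1%), those of RAB7B, RAB3D and RAB40C included, and in 27.6% of all.

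**Figure D2:**
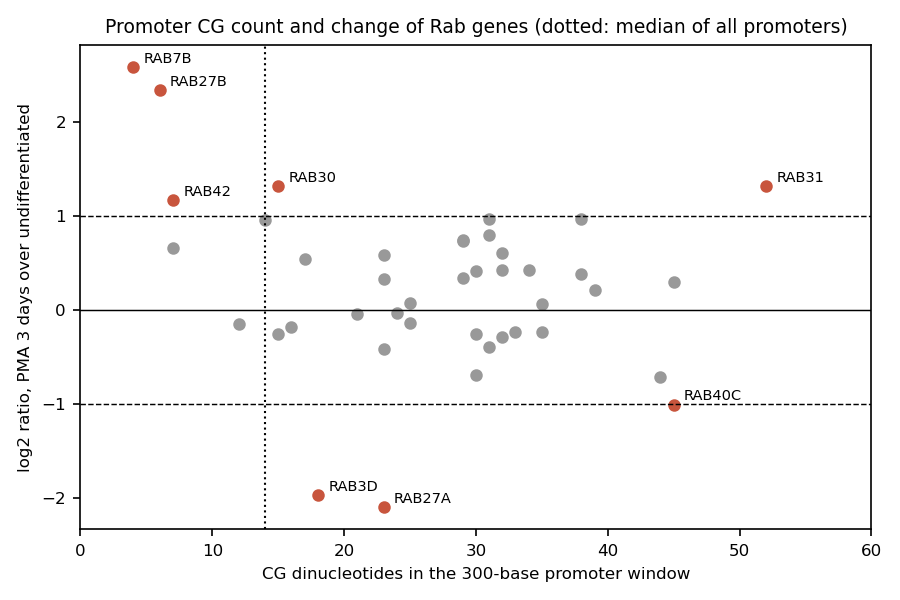
Number of CG dinucleotides in the 300-base promoter window of each Rab gene with a window and a measured value (x axis) against its log2 ratio of PMA 3 days over undifferentiated (y axis), with called genes in red. RAB7B, RAB27B and RAB42 lie left of the dotted line, the median of 14 over all windows, while RAB31 is higher with 52.

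Regulated secretion was the group in which every measured member had a log2 ratio below 0. RAB3D, a Rab of secretory granules, had 2908 signal units in undifferentiated cells, 744 at PMA 3 days and 756 at PMA 8 days, 3.91-fold and 3.85-fold lower. Its dimmer probe set had 217, 83.5 and 153 units in the same order. It was at least 1.45-fold lower at PMA 3 days, a bound because that signal is below the floor, and 1.42-fold lower at PMA 8 days. RAB37, a Rab of mast cell granules, had 548 units in undifferentiated cells and was below the floor at PMA 3 days (45.6) and PMA 8 days (98.9), at least 3.66-fold lower. RAB26, which acts in granule maturation, had 279, 175 and 187 units, with log2 ratios of -0.67 and -0.58. Its other probe set had 330, 109 and 179 units. By it RAB26 was at least 2.20-fold lower at PMA 3 days and 1.85-fold lower at PMA 8 days. RAB3A, RAB3B and RAB3C had undifferentiated signals of 241, 179 and 199 units and were below the floor on both PMA arrays. Log2 ratios were below 0 in 57.5% of all genes at PMA 3 days and in 54.9% at PMA 8 days, and 4 of the 6 members were measured only because their undifferentiated signal passed the floor, which fixes their direction.

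In the early endosome group RAB31 was higher. RAB31, which carries cargo between the trans-Golgi network and endosomes, had 12336 signal units in undifferentiated cells, 30669.7 at PMA 3 days and 33821 at PMA 8 days, 2.49-fold and 2.74-fold higher. All 3 of its probe sets passed 2-fold, up to 3.48-fold at PMA 8 days. RAB22A, its relative on early and recycling endosomes, had 2351, 4069 and 4747 units and passed 2-fold at PMA 8 days (2.02-fold), where its brightest probe set decides the call. Its second probe set had 2171, 1735 and 1946 units, so the direction depends on the probe set. RAB5A, RAB5B and RAB5C, which govern fusion of early endosomes, stayed within 2-fold: RAB5A was 1.52-fold and RAB5C 1.68-fold above undifferentiated cells at PMA 3 days, and RAB5B 1.14-fold below. RAB4A (1.31-fold above) and RAB21 (1.03-fold below), which act in integrin and receptor recycling, did not pass at PMA 3 days either. The other probe sets of RAB4A had log2 ratios of -0.045 and -0.083 at PMA 3 days, so its direction depends on the probe set. The group of 8 ran from -0.25 to 1.31 in log2 ratio at PMA 3 days, with a median of 0.50. That median was 0.030 by the median of each gene's probe sets, with 4 members above 0 and 4 below, 0.17 without x_at and s_at probe sets and 0.18 with poly-A scaling.

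Among the Rabs of recycling endosomes and delivery to the surface, 0 of 10 measured members passed 2-fold at PMA 3 days, against 21.1% of all genes, and 1 did at PMA 8 days, against 18.3%. The PMA 3 days count depends on the setting. RAB13, RAB15 and RAB8B passed under median scaling, and RAB15 under quantile normalization. RAB8B also passed by the median of its probe sets and by its second-brightest one, and RAB11A passed downwards without x_at and s_at probe sets. RAB15, a Rab of recycling endosomes, had 584 signal units in undifferentiated cells, 1134 at PMA 3 days and 1195 at PMA 8 days, 2.04-fold higher at PMA 8 days, and its other probe set gave 2.44-fold. RAB13, which directs junction proteins to the surface, had 15266.5, 29535 and 29308 units, 1.93-fold and 1.92-fold above undifferentiated cells. RAB8B, which serves transport to the plasma membrane, had 8733, 17078 and 13962 units by its brightest probe set (log2 ratios of 0.97 and 0.68). Its dimmer probe sets gave 2.67-fold and 3.91-fold at PMA 3 days, and 1.99-fold and 3.60-fold at PMA 8 days. At PMA 3 days both of these passed 2-fold and at PMA 8 days 1 did, while the brightest passed at neither time. RAB8A gave 1.33-fold and 1.32-fold. RAB10, which inserts glucose transporters into the surface in fat cells, had 14310, 14990 and 13694 units, within 1.05-fold, by its brightest probe set. Its other probe set had 7161, 11778 and 9887 units, 1.64-fold and 1.38-fold above undifferentiated cells. RAB11A, the central Rab of the recycling endosome, was 1.26-fold and 1.36-fold above undifferentiated cells, but its dimmest probe set had 974, 378 and 439 units and was 2.58-fold and 2.22-fold lower. All 10 measured members had a log2 ratio above 0 at PMA 3 days, which 42.4% of all genes had, and 9 of 10 at PMA 8 days, against 45.1%. RAB11B, with 137, 200.3 and 212 units, was measured only because its PMA signals passed the floor, which fixes its direction. With poly-A scaling 8 of 10 did at PMA 3 days and 9 of 10 at PMA 8 days, with quantile normalization 9 of 10 did at PMA 3 days, and without x_at and s_at probe sets 8 of 9 did at PMA 3 days and 7 of 9 at PMA 8 days.

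**Figure D3:**
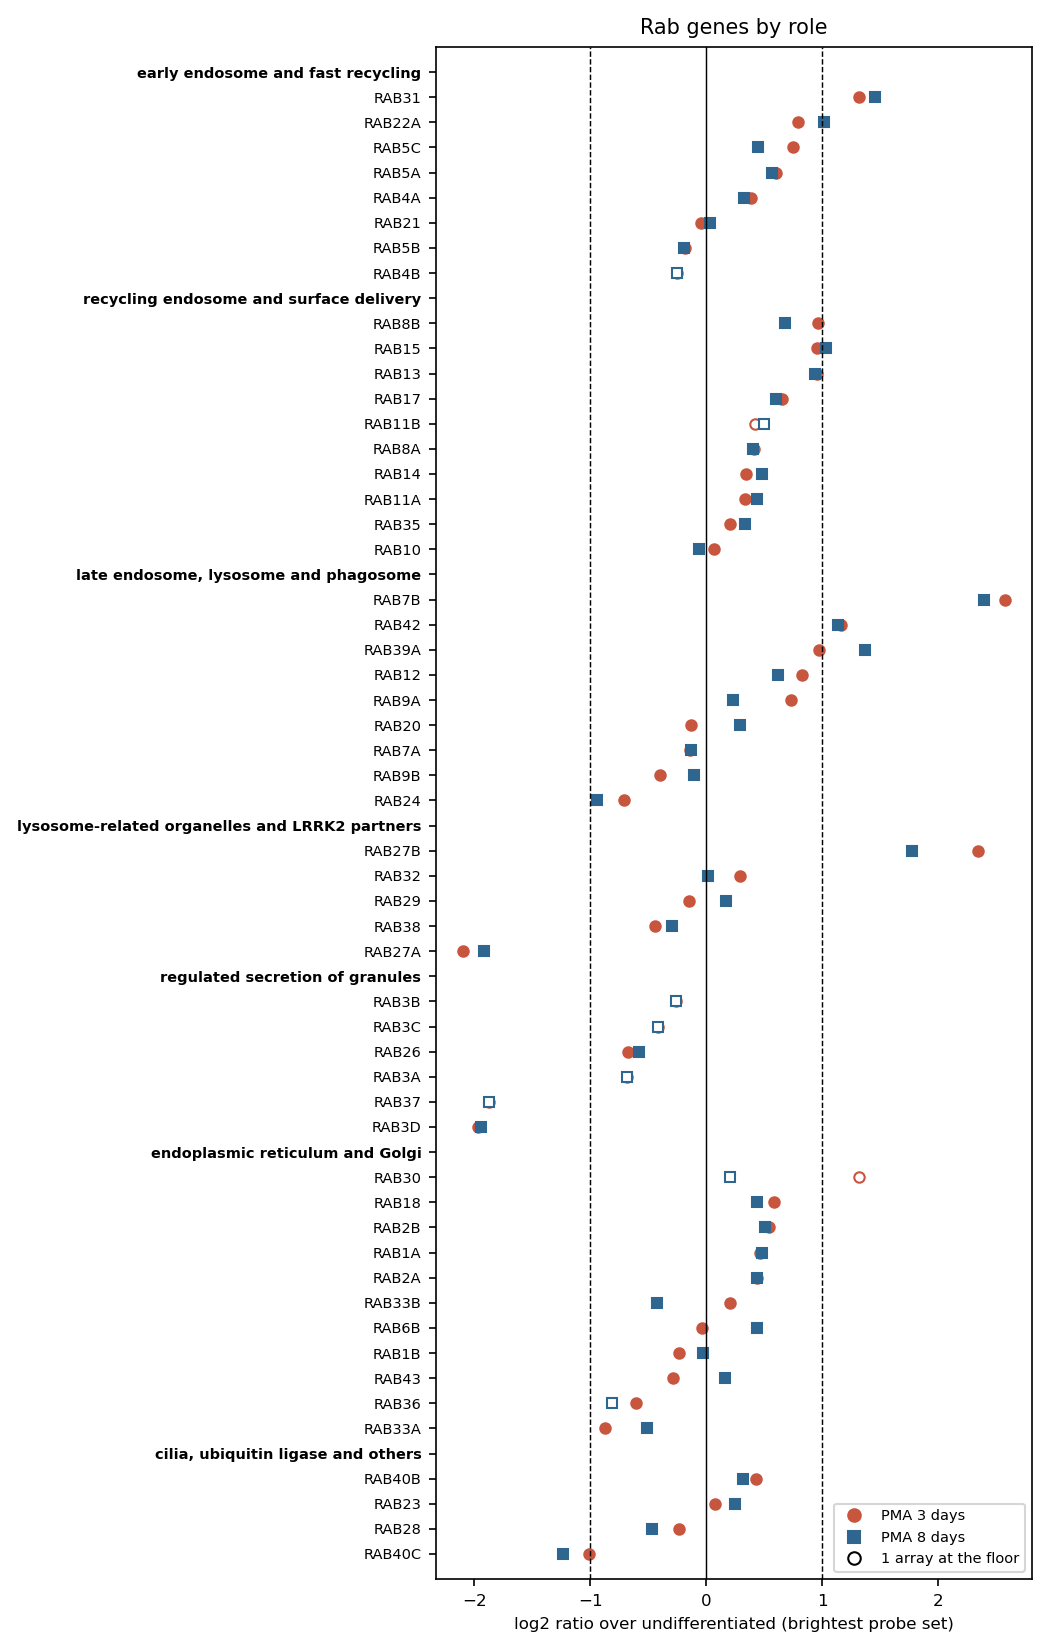
Log2 ratio over undifferentiated cells of each measured Rab gene at PMA 3 days (circles) and PMA 8 days (squares), by role group and within it by the PMA 3 days ratio, 1 array per condition. Dashed lines mark 2-fold and open symbols have 1 array at the floor. RAB7B, RAB27B and RAB27A stand farthest from 0, and most other members lie between the dashed lines.

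The Rabs of the endoplasmic reticulum and Golgi stayed largely within 2-fold. RAB1A, needed for transport from the endoplasmic reticulum to the Golgi, had 27615 signal units in undifferentiated cells, 38038 at PMA 3 days and 38609 at PMA 8 days (1.38-fold and 1.40-fold above), and RAB1B 2172, 1847 and 2127. RAB2A and RAB18, a Rab of lipid droplets, had log2 ratios of 0.44 and 0.58 at PMA 3 days. The 11 measured members had a median of 0.20 at PMA 3 days and 0.21 at PMA 8 days. RAB2A was the only gene whose probe sets passed 1.5-fold in opposite directions, at PMA 8 days, with log2 ratios of -0.65 and 0.64 in probe sets with 458 and 667 units in undifferentiated cells. RAB33A (1.83-fold below at PMA 3 days, 1.42-fold below at PMA 8 days) and RAB36 (1.52-fold below, and at least 1.75-fold below) did not pass. RAB30, a Golgi Rab, had 64.6 units in undifferentiated cells, 372 at PMA 3 days and 173 at PMA 8 days. It was at least 2.49-fold higher at PMA 3 days by this probe set, while none of its other 4 probe sets exceeded 199.2 units on any array. The call was lost with the floor at the 60th percentile (log2 ratio 0.51) and by the median of its probe sets (0.069).

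RAB40C, which belongs to a branch of Rabs with a SOCS box that recruit ubiquitin ligases, had 2865 signal units in undifferentiated cells, 1426 at PMA 3 days and 1219 at PMA 8 days, 2.01-fold and 2.35-fold lower. The PMA 3 days call was lost under quantile normalization and median scaling. The other probe sets of RAB40C were below the floor, and RAB40B was 1.35-fold and 1.25-fold above undifferentiated cells. RAB23, a regulator of hedgehog signalling, had 1602, 1686 and 1901 units by its brightest probe set, but a dimmer probe set of a type prone to cross-hybridisation had 260, 657 and 623. RAB28, a Rab of cilia, was 1.18-fold and 1.38-fold below undifferentiated cells. Of the Rabs of lysosome-related organelles besides the RAB27 pair, RAB32 was 1.23-fold and 1.01-fold above undifferentiated cells, and RAB38 1.36-fold and 1.22-fold below. RAB29, which recruits the kinase LRRK2 to membranes, had 5655, 5108 and 6358 units.

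**Figure D4:**
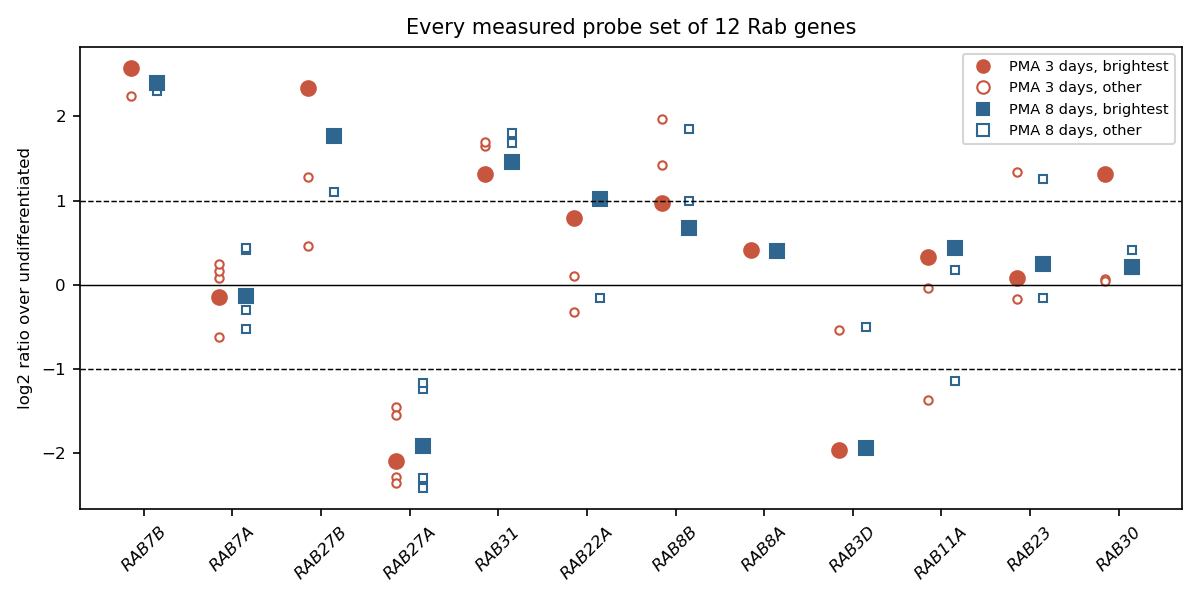
Log2 ratio over undifferentiated cells of every measured probe set of 12 Rab genes at PMA 3 days (circles) and PMA 8 days (squares), filled for the brightest probe set and open for the others, with dashed lines at 2-fold. All probe sets of RAB7B, RAB31 and RAB27A lie past 2-fold on 1 side, while those of RAB22A, RAB11A, RAB23 and RAB30 lie on both sides of a dashed line.

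Over the family, 29 genes had at least 2 measured probe sets, and in 18 of them at PMA 3 days and 17 at PMA 8 days all probe sets had the same sign. Between PMA 8 days and PMA 3 days 0 of 48 measured Rab genes were higher and 1 was lower (2.08%), against 1.37% higher, 0.958% lower and 2.33% in either direction among 13051 genes. That gene was RAB30, 2.15-fold lower by the probe set that was higher at PMA 3 days, and its second-brightest probe set had a log2 ratio of 0.10. RAB27B had a log2 ratio of -0.57 between the PMA cultures, RAB7B -0.18, RAB27A 0.18 and RAB31 0.14.

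The largest ratios among genes that act on Rab proteins exceeded that of any Rab gene. Of 6 measured genes for prenylation, membrane delivery and extraction of Rabs, 1 was higher and 1 lower at either time (33.3%, against 21.1% of all genes at PMA 3 days and 18.3% at PMA 8 days), and the median log2 ratio was 0.06 at PMA 3 days and 0.04 at PMA 8 days. CHML, an escort protein that presents new Rabs for prenylation, had 4579 signal units in undifferentiated cells, 1373 at PMA 3 days and 1659 at PMA 8 days (3.33-fold and 2.76-fold lower). RABAC1, an acceptor of prenylated Rabs, had 2388, 7834 and 5785 units (3.28-fold and 2.42-fold higher). Of 36 measured exchange factors, 2 were higher and 4 lower at PMA 3 days, and 2 and 3 at PMA 8 days, with medians of -0.31 and -0.20. These are 16.7% and 13.9% called, below the 21.1% and 18.3% of all genes. RIN2, an exchange factor for RAB5, had 234 units in undifferentiated cells, 8160 at PMA 3 days and 6675 at PMA 8 days. It was 34.9-fold and 28.5-fold higher, a size that depends on its low undifferentiated signal. This rests on 1 of its 2 probe sets, as the other did not exceed the floor on any array. SBF2, an exchange factor of the DENN family, was higher with log2 ratios of 1.49 and 1.20, while its other measured probe set gave -0.07 at PMA 3 days. DENND1A, an exchange factor for RAB35, was 2.92-fold and 3.34-fold lower, and DENND2D 2.32-fold and 2.58-fold lower. The other probe set of DENND1A had log2 ratios of -0.63 and -0.85, short of 2-fold, and that of DENND2D -1.14 and -0.94.

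Of 35 measured GTPase-activating proteins at PMA 3 days 3 were higher and 3 lower, and of 36 at PMA 8 days 2 were higher and 3 lower, with medians of -0.10 and -0.02. The shares called were 17.1% and 13.9%, against 21.1% and 18.3% of all genes. TBC1D30, which acts on RAB8A, had 4028 signal units in undifferentiated cells, 263 at PMA 3 days and 216 at PMA 8 days (15.3-fold and 18.6-fold lower), and 2 of its 3 probe sets passed 2-fold. TBC1D4, which restrains RAB10 in insulin-responsive cells, had 597, 5084 and 3975 units (8.52-fold and 6.66-fold higher), and both of its probe sets passed. TBC1D2, which acts on RAB7A, was 2.03-fold and 3.01-fold higher. TBC1D10C was at least 2.88-fold lower at either time, and TBC1D24 was 2.26-fold and 2.61-fold lower.

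Of 48 measured effectors, 5 were higher and 2 lower at PMA 3 days and 8 were higher and 2 lower at PMA 8 days, with medians of 0.20 and 0.02. The shares called were 14.6% and 20.8%, against 21.1% and 18.3% of all genes. SYTL3, a synaptotagmin-like effector of RAB27, had 491 signal units in undifferentiated cells, 9438 at PMA 3 days and 6262 at PMA 8 days (19.2-fold and 12.8-fold higher), and 2 of its 3 measured probe sets passed 2-fold. SYTL1, of the same effector family, had 974, 158 and 164 units (6.16-fold and 5.94-fold lower), close to the floor on both PMA arrays. Others of that family were not called at PMA 3 days: SYTL2 had a log2 ratio of 0.47 and SYTL4 of 0.017. SYTL5 was below the floor on every array. SYTL2, with 222, 307 and 481 units, was 2.17-fold higher at PMA 8 days. Its other measured probe set had a log2 ratio of 0.89 at that time, short of 2-fold, and SYTL4 had -0.10. MYO5A, the myosin motor that links to RAB27A through melanophilin, had 1058, 5512 and 4464 units (5.21-fold and 4.22-fold higher), and all 3 of its measured probe sets passed. RILPL1, which binds Rabs phosphorylated by LRRK2, was at least 3.91-fold and 4.77-fold higher. Chosen after its values were seen, MLPH, which is melanophilin, had 267, 441 and 687 units and was 2.58-fold higher at PMA 8 days. RILP, an effector of RAB7A named in the same way, had 772, 2056 and 1740.2 units and was 2.66-fold and 2.25-fold higher. RILPL2, also named after its values were seen, went the other way, with 6192, 3203 and 3041 units. Its log2 ratios were -0.95 and -1.03, and it was called lower at PMA 8 days (2.04-fold).

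**Figure D5:**
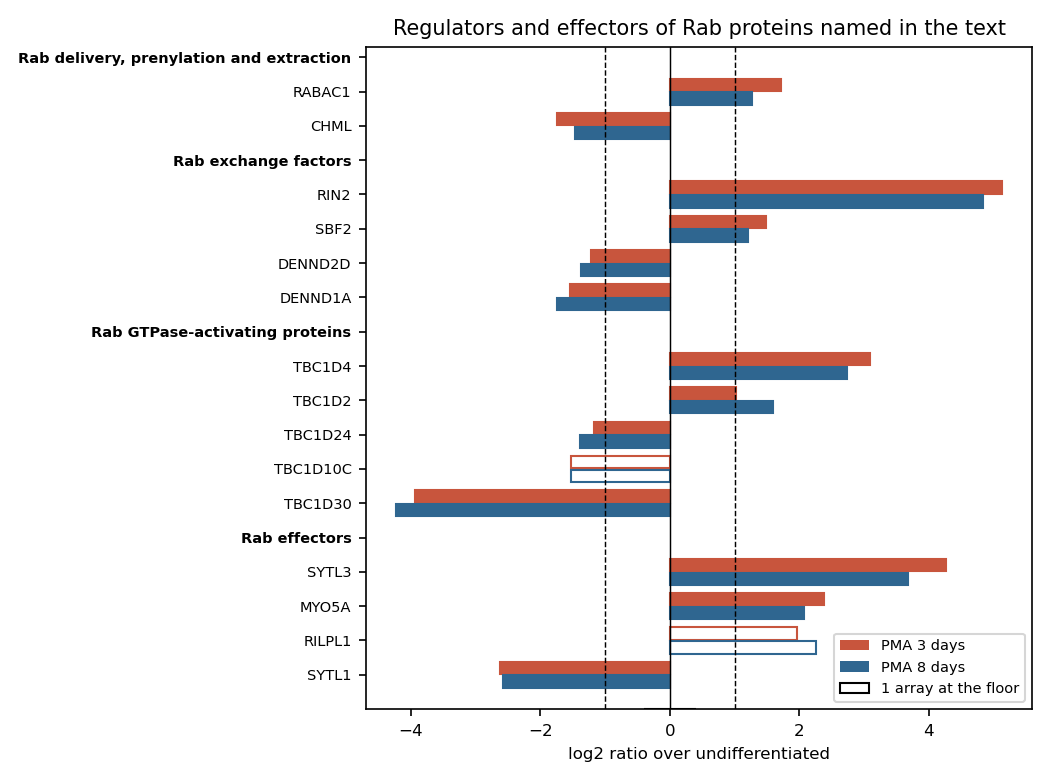
Log2 ratio over undifferentiated cells at PMA 3 days (red) and PMA 8 days (blue) of the regulators and effectors of Rab proteins with the largest calls in each list, 1 array per condition. Open bars have 1 array at the floor and dashed lines mark 2-fold. RIN2, SYTL3 and TBC1D4 are the highest and TBC1D30 and SYTL1 the lowest at both times.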

How the data were processed

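The deposited intensity values are linear probe set signals of 3 arrays, made with MAS5 per the submitters' processing notes, with version and settings not given in the sources used here. After 2% was trimmed at either end each array had the same mean, as scaling to a common target would leave. RNA input was 200 ng per the labels' protocols. Of 54675 probe sets 62 controls were set aside, 41091 had 1 gene in the platform table, 1801 several and 11721 none. RefSeq (GRCh38.p14) matched 41037 by Entrez ID and changed 0 symbols.

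Each gene was represented by the probe set with the highest mean signal over the arrays. Signals were raised to the floor, the 50th percentile of all values, before log2 ratios were taken. A gene was measured in a comparison where either array exceeded the floor, and a ratio with an array at the floor is a bound ("at least"). The rule ran over all genes and only Rab rows are printed. No p-values are given. Precision is limited by the single array per condition, the spread between probe sets of a gene, the floor and the scaling. Named are all Rab genes past 2-fold, up to 3 others per role group, and the 4 largest calls per list and comparison for other pathway genes. Further Rab genes are named after their values were seen. Members, role groups, lists and tests were chosen with earlier results of these data known. Steps were tested on simulated data. Only changes well past 2-fold had to be recovered there, in genes with signals well above the floor. Calls near 2-fold or near the floor were thus not checked by it. Alternatives in floor, filter, scaling, probe set and fold threshold are in the closing section. Detection calls, array images and protein sequences were not used here. Software was matplotlib 3.10.9, scipy 1.17.1, pandas 2.3.3 and numpy 2.4.6 under Python 3.11.15.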

Additional observations from a re-analysis of the deposited data

How the results depend on the processing

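No paired analysis was possible because each condition had 1 array, and no replicate could be left out. The count of Rab genes higher at PMA 3 days (5) was 15 at a 1.5-fold threshold, 2 at 3-fold, 9 under median scaling and 3 without probe sets whose names end in x_at or s_at. That lower at PMA 3 days (4) was 9 at 1.5-fold and 2 by the second-brightest probe set. The count higher at PMA 8 days (7) was 11 at 1.5-fold, 2 at 3-fold and 4 by the second-brightest probe set, and that lower (4) was 7 at 1.5-fold and 1 by the second-brightest probe set. Between PMA 8 and 3 days the count lower (1) was 2 at 1.5-fold and 0 at 3-fold, with the floor at the 60th percentile, by the median of probe sets, by the second-brightest probe set and under poly-A control scaling. The median log2 ratio at PMA 3 days (0.21) was 0.33 with the filter on the geometric mean and with the floor at the 60th percentile, 0.075 by the median of probe sets, 0.074 without a filter and without x_at or s_at probe sets, and -0.10 under poly-A control scaling. At PMA 8 days (0.25) it was 0.41 by the second-brightest probe set, which only 29 genes have, and between the PMA cultures (0.00) it was 0.29 when scaled to poly-A controls (all genes 0.31). RAB22A reversed to a log2 ratio of -0.16 at PMA 8 days by its second-brightest probe set, and RAB30 between the PMA cultures to 0.14 by the median of its probe sets and 0.10 by the second-brightest. The cause was not tested. RAB40C lost its PMA 3 days call under quantile normalization and median scaling, RAB42 under poly-A control scaling and RAB30 with the floor at the 60th percentile and by the median of probe sets. RAB37 lost both calls with the filter on the geometric mean, and RAB22A its PMA 8 days call under poly-A control scaling and by the median of probe sets. RAB27A, RAB31, RAB42 and RAB40C have no other probe set above the floor than x_at and s_at ones. Of the comparisons of single named genes with an alternative, 286 moved by less than the SD between probe sets of 1 gene, 35 by more, and 3 reversed. Only ratios of at least 2-fold could count as reversed. Other changes of sign are not among the 3, such as RAB22A at PMA 3 days, from 0.79 to -0.32 by its second-brightest probe set. Several alternatives, such as leaving out the filter, keep a gene's ratio unchanged by construction, so this tally does not measure robustness. Genes near the floor, such as RAB37, RAB39A and RAB42, are the least certain.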

Other observations

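Probe sets that list a Rab symbol with other genes give values that cannot be assigned to 1 gene. A probe set listed for RAB6A and RAB6D, Golgi Rabs, had 5065 signal units in undifferentiated cells, 8924 at PMA 3 days and 8301 at PMA 8 days, with log2 ratios over undifferentiated of 0.82 and 0.71. One listed for RAB6A, RAB6C and RAB6D had 6159, 10902.5 and 11195 units (0.82 and 0.86). Both lie under 2-fold. Both probe sets listed for RAB34 and NARR were below the floor on all 3 arrays. Of 3 probe sets listed for RAB4B and the read-through transcript MIA-RAB4B, all were between -0.22 and -0.18 in log2 ratio at PMA 3 days and between 0.35 and 0.57 at PMA 8 days, while the probe set listed for RAB4B alone was above the floor only in undifferentiated cells.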
